A study of Mus musculus with 11 samples.

Results

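The genes examined were the 6 that make up the ligand and receptor pair systems of osteoclast formation. They are Tnfsf11 (RANKL), its decoy receptor Tnfrsf11b (osteoprotegerin), its signalling receptor Tnfrsf11a (RANK), Csf1 (M-CSF), Il34 and their shared receptor Csf1r. They were taken by symbol from the merged count table of 22600 genes, where each had 1 row, and all 6 passed the filter on low counts along with 16496 genes in all. Whole distal tibiae, cut at the tibia and fibula junction, gave 1 library for each of 4 control mice and 7 BMAd-DTA mice. Every mouse was of the C57BL6/SJL background, fed ad libitum and 24 weeks old per the labels. The study's methods state that all mice carried Osterix-FLPo and the FLPo-dependent Adipoq-Cre (FAC), so the controls, labelled BMAd-WT, carried the recombinases as well. BMAd-DTA mice had ROSA-DTA in addition, which releases diphtheria toxin A in cells where Cre is active. Cre is placed in the Adipoq gene and needs prior Osterix-driven FLPo, and the study describes it as less efficient in young mice and active in a small subset of marrow adipogenic lineage precursors. Whole bone holds bone, marrow, cartilage and traces of muscle, and in such RNA fewer cells of a type and less RNA per cell cannot be told apart.

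Counts assigned to genes were 16969529 to 18637663 per library, and the group medians were 17701061 in controls and 17612195 in BMAd-DTA mice. No pair of libraries within a group agreed within sampling noise. The libraries fell into 2 classes by the share of unmapped read pairs, with 9.57% to 9.99% in controls 1 and 4, 9.10% to 11.5% in BMAd-DTA mice 1, 4 and 7, and 13.8% to 15.1% in the remaining 6, so both groups had libraries in each class. The labels give no sex and the legend of this experiment names males, while counts on Xist were 13810 to 20260 and those on 4 Y-linked genes summed to 0 or 1. By these counts every library read as female, at odds with the legend. Bone markers were abundant, with a summed level of the 11 osteoblast genes of at least 3186 CPM, and the summed level of the 2 keratinocyte genes tested was at most 2.77 CPM. CPM is the count scaled to the library total, here after the TMM scaling of edgeR.

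Osteoclasts are large bone-resorbing cells that form by fusion of monocyte and macrophage lineage precursors. CSF1 or IL-34 acting on CSF1R keeps the precursors alive and dividing, and RANKL acting on RANK then commits them to the osteoclast fate through TRAF6, NF-kB and NFATC1. Osteoprotegerin is a secreted decoy that binds RANKL and keeps it from RANK, so the RANKL to osteoprotegerin ratio is a common summary of the drive to resorption. In bone the ligands come from osteocytes, osteoblasts and marrow stromal cells, including adipocyte lineage cells, and the receptors sit on the osteoclast lineage.

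Csf1 was the member that separated the groups. Its mean was 93.4 ± 12.8 CPM in controls (SD, n = 4) and 133 ± 19.0 CPM in BMAd-DTA mice (SD, n = 7), a 1.43-fold higher level (95% interval 1.20 to 1.70), and each of the 7 BMAd-DTA values exceeded the highest control. The call depended on the test, with an adjusted p of 0.0720 by edgeR's quasi-likelihood test and 0.00212 by DESeq2, both with Benjamini-Hochberg adjustment. Tnfsf11, Tnfrsf11b, Tnfrsf11a and Csf1r had higher fitted levels in BMAd-DTA mice and Il34 a lower one, but none of these 5 passed either test and their groups overlapped. The median log2 fold change of the 6 genes was 0.25, beside 0.0018 over all genes tested.

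These counts are to be read against all genes. The adjusted edgeR threshold of 0.05 was passed by 13 of 16496 genes (0.0788%) and by 0 of the 6. An unadjusted edgeR p under 0.05 was found for 16.4% of genes (7.89% upward and 8.53% downward) and for 1 of the 6, Csf1. DESeq2 called 845 of 15583 genes (5.42%, with 2.78% higher and 2.64% lower), and 1 of the 6. Groups that did not overlap in CPM were seen in 2.81% of genes and in 1 of the 6.

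**Figure D1:**
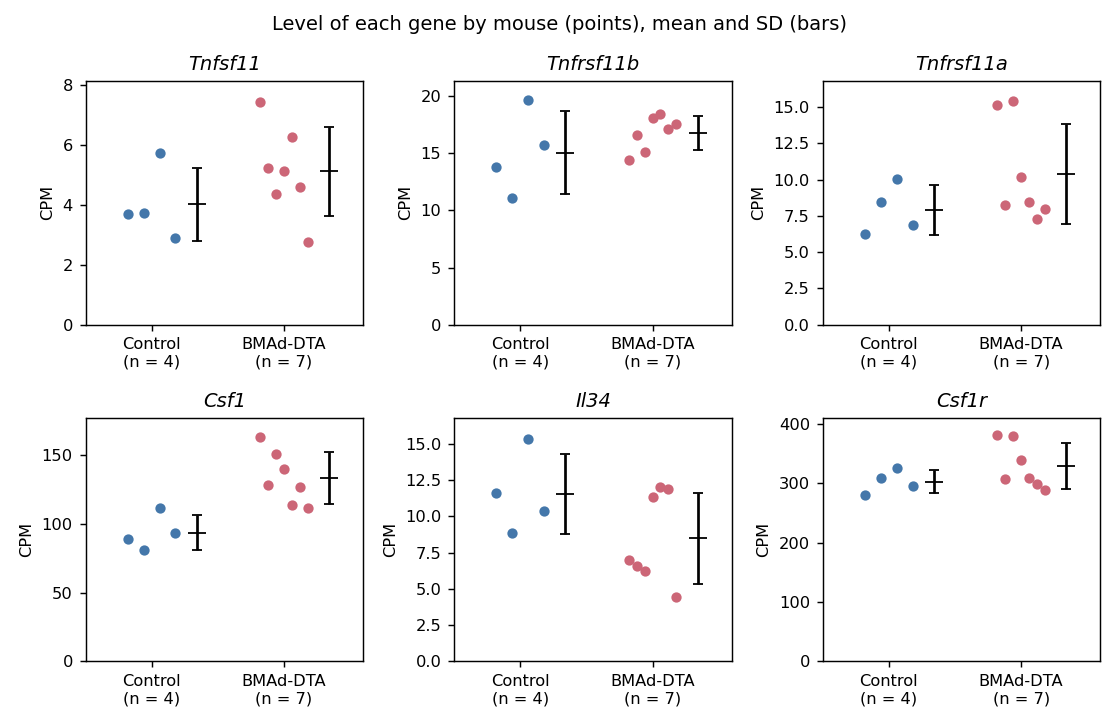
CPM of each of the 6 genes (vertical axes, linear and starting at 0) in 4 control and 7 BMAd-DTA mice; each point is 1 mouse and the bars give the mean and SD. The 7 BMAd-DTA points of Csf1 run from 111.5 to 162.9 CPM, above the highest control at 111.1, while the points of the other genes overlap between groups.

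RANKL is the membrane-bound or shed cytokine that drives osteoclast differentiation. Tnfsf11 (ENSMUSG00000022015.8) lies on the minus strand of chromosome 14 from 78277445 to 78308043 (GRCm38) and has 1 annotated transcript with 2236 exonic bases. Its level was 3.69, 3.71, 5.73 and 2.90 CPM in the 4 controls, and 2.77 to 7.42 CPM with a median of 5.14 in BMAd-DTA mice. The highest value, in BMAd-DTA mouse 1, and the lowest, in BMAd-DTA mouse 7, were both in the same group, so the groups overlapped, and 2 of 7 BMAd-DTA mice exceeded all 4 controls. The log2 fold change was 0.35 ± 0.25 (SE; 95% interval -0.20 to 0.89; edgeR adjusted p = 0.533, exact permutation p = 0.236). These levels rest on 52 to 126 counts per library, and counting error alone gives a coefficient of variation of 11.9% in controls and 10.6% in BMAd-DTA mice, beside 30.1% and 28.8% measured.

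The sequence before the start of Tnfsf11 is shown as the reference for the ligand gene of the pathway. It is the 250 bases upstream of the RefSeq start, chr14:78308044-78308293 on the minus strand of GRCm38.p6, written 5′ to 3′ along the gene. Capitals mark the one match to TATAAA, which lies on the reverse strand and begins at position -32 counted from the start.
Tnfsf11: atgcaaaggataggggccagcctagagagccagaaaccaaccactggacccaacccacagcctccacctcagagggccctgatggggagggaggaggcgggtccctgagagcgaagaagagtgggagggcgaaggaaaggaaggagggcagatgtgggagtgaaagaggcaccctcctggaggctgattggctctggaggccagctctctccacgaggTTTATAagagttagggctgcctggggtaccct
Of 32851 RefSeq promoter windows of the same length, 12.4% hold TATAAA on either strand, a motif chosen after the sequence was seen. GGGCGG (Sp1), GGACTTTCC (an NF-kB core), TGANTCA (AP-1) and ACCACA (RUNX) were searched on both strands in the same way and are not found in this window.

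Osteoprotegerin is the decoy made by osteoblast lineage and stromal cells. Tnfrsf11b (ENSMUSG00000063727.3; chromosome 15, 54250619 to 54278484, minus strand, 1 transcript) was measured at 13.8, 11.1, 19.7 and 15.7 CPM in controls. In BMAd-DTA mice it ran from 14.4 to 18.4 CPM with a median of 17.1. The controls held both the lowest and the highest library, and the BMAd-DTA mice lay within that range. Their coefficient of variation was 8.94%, close to the 5.81% that counting error gives, against 24.0% among controls. The log2 fold change was 0.15 ± 0.13 (SE; 95% interval -0.14 to 0.44; edgeR adjusted p = 0.627, exact permutation p = 0.252).

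The RANKL to osteoprotegerin ratio, taken as the Tnfsf11 count over the Tnfrsf11b count of the same library, does not depend on library scaling. It was 0.268, 0.335, 0.291 and 0.185 in the 4 controls, and 0.158 to 0.514 with a median of 0.290 in BMAd-DTA mice. BMAd-DTA mouse 1 was the highest of the 11, at 126 over 245 counts, BMAd-DTA mouse 7 was the lowest at 52 over 329, and the other 5 BMAd-DTA mice lay between 0.268 and 0.340. The means were 0.270 ± 0.0631 (SD, n = 4) and 0.310 ± 0.107 (SD, n = 7), or 0.340 and 0.390 per kilobase of exon, so osteoprotegerin RNA was the more abundant in every library. The BMAd-DTA ratio was 1.12-fold that of controls on the log2 scale (95% interval 0.708 to 1.76), with p = 0.624 in a two-sided exact permutation test over 330 splits of the mice. The direction rested on single libraries, since the log2 difference of 0.16 became -0.012 without control mouse 4 and 0.025 without BMAd-DTA mouse 1. It was 0.36 within the libraries with under 12% unmapped pairs (2 controls, 3 BMAd-DTA mice) and -0.050 within those with over 13% (2 and 4).

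**Figure D2:**
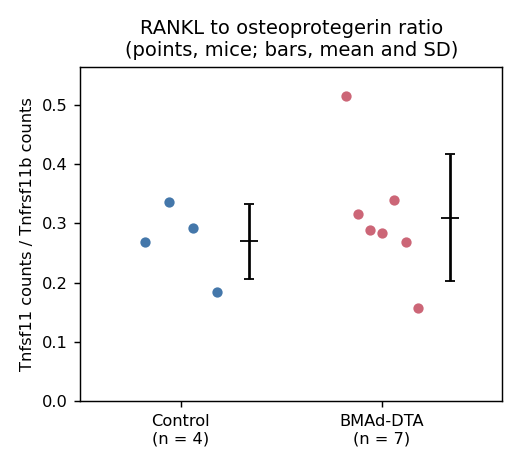
Ratio of Tnfsf11 counts to Tnfrsf11b counts (vertical axis, starting at 0) in 4 control and 7 BMAd-DTA mice; each point is 1 mouse and the bars give the mean and SD. One BMAd-DTA mouse stands at 0.514, and the other 10 mice of both groups lie between 0.158 and 0.340.

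RANK is the receptor through which RANKL acts on osteoclast precursors. Tnfrsf11a (ENSMUSG00000026321.7; chromosome 1, 105780718 to 105847981, plus strand, 3 transcripts) was at 6.23, 8.42, 10.1 and 6.90 CPM in controls, and at 7.28 to 15.4 CPM with a median of 8.44 in BMAd-DTA mice. BMAd-DTA mice 1 and 3 stood highest, at 15.1 and 15.4 CPM, and 4 of the other 5 lay within the range of the controls. The log2 fold change was 0.39 ± 0.23 (SE; 95% interval -0.11 to 0.90; edgeR adjusted p = 0.430, exact permutation p = 0.2). It was 0.70 within the libraries with under 12% unmapped pairs and 0.031 within those with over 13%, so its size differed between the classes.

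CSF1 is the main growth and survival factor of the macrophage and osteoclast lineage. Csf1 (ENSMUSG00000014599.10) spans 107741048 to 107760469 on the minus strand of chromosome 3, with 7 transcripts that the gene counts do not separate, so membrane-bound and secreted forms were not told apart. Its level was 88.6, 81.0, 111.1 and 93.0 CPM in controls and 111.5 to 162.9 CPM with a median of 127 in BMAd-DTA mice. The gap between the groups was narrow, with control mouse 3 at 111.1 and BMAd-DTA mouse 7 at 111.5 CPM. The log2 fold change was 0.51 ± 0.11 (SE; 95% interval 0.27 to 0.76; edgeR adjusted p = 0.0720), which ranked 134 by p among 16496 genes. A two-sided exact permutation test over the mice gave p = 0.00303, the smallest that 4 against 7 allows. This unadjusted p restates the lack of overlap between the groups, which 2.81% of all genes shared. The difference was 0.59 within the libraries with under 12% unmapped pairs and 0.45 within those with over 13%. That the groups did not overlap within either class follows from their not overlapping over all mice. With a library left out the log2 fold change was 0.45 to 0.61 and the edgeR adjusted p 0.0390 to 0.234. The only fit of these with an adjusted p under 0.05 was that without control mouse 3, the highest control (0.61, adjusted p = 0.0390), in which 292 genes passed.

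The 250 bases before the start of Csf1 are shown because it is the member whose level differed by DESeq2. They are chr3:107760470-107760719 on the minus strand of GRCm38.p6 in RefSeq. Capitals mark the NF-kB core GGACTTTCC, which begins at position -154 and reads GGAAAGTCC because it lies on the reverse strand, and both copies of GGGCGG, the upstream copy beginning at position -51.
Csf1: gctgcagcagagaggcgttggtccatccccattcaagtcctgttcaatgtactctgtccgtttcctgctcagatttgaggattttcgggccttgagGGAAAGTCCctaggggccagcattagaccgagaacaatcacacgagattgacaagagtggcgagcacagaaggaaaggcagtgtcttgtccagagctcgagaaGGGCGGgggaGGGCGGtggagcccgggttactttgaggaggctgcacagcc
The NF-kB core is held by 93 of the 32851 windows (0.283%) and GGGCGG by 32.7%. Because the motifs were chosen after the sequence was seen, these shares do not measure how unusual the matches are. A match describes the letters and was not tested for binding.

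IL-34 is the other ligand of CSF1R and shares no sequence similarity with CSF1. Il34 (ENSMUSG00000031750.15; chromosome 8, 110741829 to 110805924, minus strand, 5 transcripts) was at 11.6, 8.83, 15.3 and 10.4 CPM in controls and at 4.42 to 12.0 CPM with a median of 7.01 in BMAd-DTA mice. The BMAd-DTA mice split, with mice 1, 2, 3 and 7 at 4.42 to 7.01 CPM below every control and mice 4, 5 and 6 at 11.3 to 12.0 CPM within the controls' range. The log2 fold change was -0.44 ± 0.26 (SE; 95% interval -1.01 to 0.12; edgeR adjusted p = 0.431, exact permutation p = 0.139). The same 4 mice had the lowest summed level of 14 adipocyte genes, at 1418, 907.4, 1089 and 775.6 CPM, while mice 4, 5 and 6 had 1893 to 1998 and controls 1757 to 3006. Mice 2, 3 and 7 also had the lowest marrow stroma sums of the BMAd-DTA group, at 3287 to 3668 CPM. Their endothelium sums were the lowest as well, at 565.4 to 625.8 CPM. Mouse 1 did not share this, at 5129 and 782.3 CPM. The part of these lists in the Il34 values was not tested. The antisense genes Gm15894 and Gm15895 overlap exons of Il34 on the other strand, and with both strands summed the log2 fold change was -0.30.

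Because Csf1 was higher and Il34 lower, their ratio was also computed per kilobase of exon, a choice made after their values were seen and given without a test. Csf1 exceeded Il34 from 2.69-fold upward, with a median of 3.08-fold in controls, and by 3.52- to 9.35-fold with a median of 7.21-fold in BMAd-DTA mice.

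CSF1R is the receptor tyrosine kinase that both ligands share, and it is made by monocytes, macrophages and osteoclasts. Csf1r (ENSMUSG00000024621.16; chromosome 18, 61100598 to 61132149, plus strand, 6 transcripts) was at 280.7, 308.5, 325.8 and 295.2 CPM in controls and at 288.5 to 382 CPM with a median of 309 in BMAd-DTA mice. BMAd-DTA mice 1 and 3 were again the highest, at 382 and 379.7 CPM, and 4 of the other 5 lay within the controls' range. The log2 fold change was 0.12 ± 0.089 (SE; 95% interval -0.07 to 0.31; edgeR adjusted p = 0.540, exact permutation p = 0.239), so a rise above 1.24-fold lay outside the interval. Exons of Hmgxb3 overlap Csf1r on the opposite strand, and the log2 fold change was 0.12 with both strands summed as well.

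**Figure D3:**
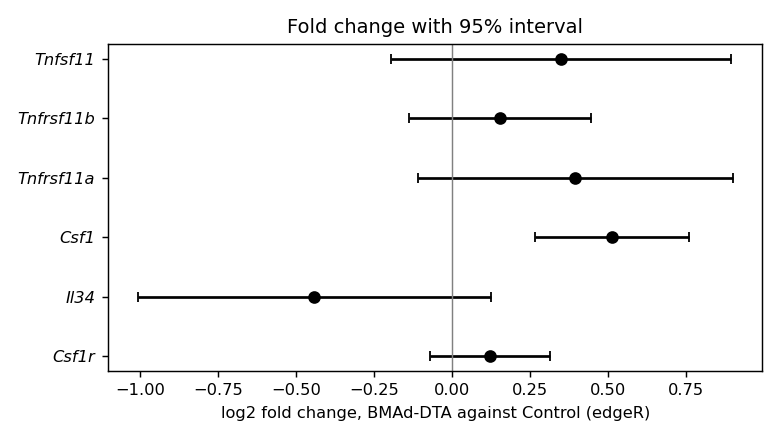
Log2 fold change of BMAd-DTA against control mice for the 6 genes from the edgeR fit (points) with 95% intervals (bars). The interval of Csf1, from 0.27 to 0.76, is the only one of the 6 that does not cross 0.

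Per kilobase of exon, the levels over all 11 mice were in the order Csf1r (mean 55.3 CPM per kilobase), Csf1 (22.5), Tnfrsf11b (5.72), Il34 (4.90), Tnfsf11 (2.11) and Tnfrsf11a (1.58). Csf1r stood 2.46-fold above Csf1 and Csf1 3.93-fold above Tnfrsf11b, and neither pair overlapped in any library. The order of Tnfrsf11b and Il34 depended on the group, as Tnfrsf11b was the higher in 7 of 7 BMAd-DTA mice (means 5.94 and 4.33 CPM per kilobase) but in 1 of 4 controls (5.34 and 5.89), and the ranges of both genes overlapped. Il34 exceeded Tnfsf11 in 11 of 11 libraries with overlapping ranges, and Tnfsf11 exceeded Tnfrsf11a in 9 of 11. Csf1r RNA was thus more abundant than the RNA of its ligands in every library, and Tnfrsf11a RNA less abundant than that of its ligand in most.

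The 2 receptors varied together between mice. Across the 11 mice, log2 CPM of Tnfrsf11a and Csf1r had Pearson r = 0.98 (permutation p = 1e-05, the smallest that 100000 resamples can give; 5e-05 after Benjamini-Hochberg adjustment over 5 pairs) and Spearman rho = 0.964 (permutation p = 2e-05, adjusted 0.0001). Without the 2 mice farthest from the median r was 0.921 (n = 9, permutation p = 0.00096), and within BMAd-DTA mice it was 0.978 (n = 7, exact permutation p = 0.00278). Within the 6 libraries with over 13% unmapped pairs r was 0.997 (exact permutation p = 0.00139), and no value was computed for the 5 libraries of the class under 12%. The summed level of 12 osteoclast genes was highest in the mice that led both receptors, with 5626 CPM in BMAd-DTA mouse 1 and 6091 CPM in mouse 3 against 3099 to 4595 CPM in controls, and its part in the relation was not tested. Within that sum the largest members in controls were Mmp9, Car2 and Itgb3, at means of 1301, 977 and 539 CPM, while Ctsk was at 185 CPM.

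Csf1 also varied with its receptor, with r = 0.765 (permutation p = 0.00591, adjusted 0.0148) and rho = 0.682 (permutation p = 0.0249, adjusted 0.0623). The value was 0.787 without the 2 farthest mice (n = 9, permutation p = 0.0101) and 0.928 within BMAd-DTA mice (n = 7, exact permutation p = 0.00298). With the group means removed r was 0.831, and within the 6 libraries with over 13% unmapped pairs it was 0.516 (exact permutation p = 0.294), of the same sign. RANKL and its receptor had r = 0.558 (permutation p = 0.0748, adjusted 0.125) and rho = 0.609 (permutation p = 0.0520, adjusted 0.0866). That value fell to 0.366 without the 2 farthest mice and was -0.13 within the over 13% class. RANKL and osteoprotegerin had r = 0.266 (permutation p = 0.434, adjusted 0.542) and rho = 0.336 (permutation p = 0.311, adjusted 0.389). That relation rested on which mice were included, since r was 0.673 without the 2 farthest (n = 9, permutation p = 0.0448), -0.30 within BMAd-DTA mice, and 0.891 within the over 13% class (exact permutation p = 0.00972). Il34 and Csf1r had r = -0.18 (permutation p = 0.589, adjusted 0.589) and rho = -0.018 (permutation p = 0.968, adjusted 0.968), with r = -0.32 without the 2 farthest mice and -0.43 within the over 13% class.

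**Figure D4:**
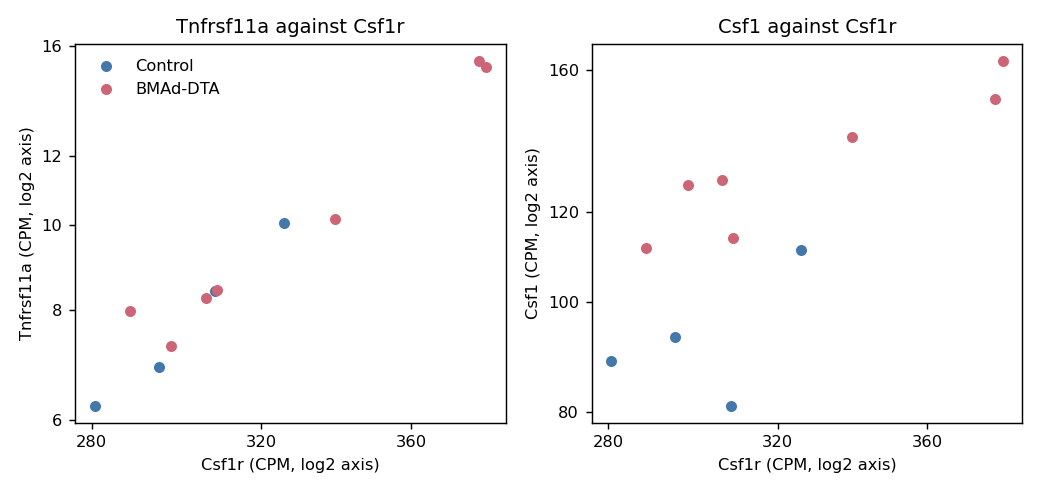
Left, Tnfrsf11a against Csf1r, and right, Csf1 against Csf1r, in CPM on log2 axes; each point is 1 mouse (blue, 4 controls; red, 7 BMAd-DTA mice). The receptors follow 1 line in both groups with r = 0.98, whereas BMAd-DTA mice lie above controls of like Csf1r level on the right.

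The genes whose pattern was most like that of each member were ranked by Pearson r of log2 CPM over 11 libraries after the group means were removed, among 12972 genes, and are given as a description. For Tnfrsf11a they were Csf1r (0.977), the polarity gene Pard3 (0.956) and the sugar phosphate exchanger Slc37a2 (0.946). For Csf1r they were Tnfrsf11a (0.977), Slc37a2 (0.967) and Gpr137b-ps (0.960). Each receptor was thus the nearest gene of the other, and Slc37a2 was near both. For Csf1 the nearest were the ketone body enzyme gene Bdh1 (0.973), the angiotensin-converting enzyme gene Ace (0.962) and Cd109 (0.954), and for Tnfsf11 they were Rab2b (0.937), the metalloproteinase inhibitor Timp1 (0.927) and Bcar1 (0.920). For Tnfrsf11b they were B4galt4 (0.923), Cpeb1 (0.922) and Trappc4 (0.918). Il34 was nearest to the adipocyte lipid genes Thrsp (0.944) and Fabp4 (0.943), and to Ushbp1 (0.940).

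Of the genes that carry the RANK signal inside the cell, 27 of 27 were tested, with 16 higher, 11 lower and a median log2 fold change of 0.040. None passed an adjusted p of 0.05 by edgeR, nor by DESeq2, which gave Fosl1 no adjusted p. An unadjusted edgeR p under 0.05 was found for 3 of 27 (11.1%, below the 16.4% of all genes), all higher. These were Nfatc1, the master transcription factor of osteoclasts (0.31 ± 0.11, SE), the kinase gene Ikbkb (0.13 ± 0.059) and Fosl1 (1.42 ± 0.35), a Fos family member at 0.320 CPM in controls and 0.873 CPM in BMAd-DTA mice that averaged 11.9 counts per library.

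The immunoreceptor (ITAM) genes that give the second signal with RANK held 14 tested members, 11 higher and 3 lower, with a median of 0.070. Trem2 (0.53 ± 0.18, SE) and Siglec15 (0.91 ± 0.41), both surface receptors of the osteoclast lineage, were the 2 of 14 with an unadjusted edgeR p under 0.05 (14.3%, near the 16.4% of all genes). Oscar had the largest log2 fold change, 0.94 ± 0.44 (edgeR adjusted p = 0.310), and the adaptor Lcp2 the smallest, -0.18. Of 15 CSF1 receptor signalling genes 7 were higher and 8 lower with a median of -0.0086. The 2 of 15 with an unadjusted edgeR p under 0.05 (13.3%, below the 16.4% of all genes) were the cell cycle gene Ccnd1 (0.46 ± 0.16) and Pik3r1 (-0.20 ± 0.072), a regulatory subunit of PI3 kinase. Neither list had a member past an adjusted threshold by either tool.

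Among 9 other binding partners and sheddases of RANKL and osteoprotegerin or the CSF1 system, 5 were higher and 4 lower with a median of 0.32, and DESeq2 called 3, all higher. An unadjusted edgeR p under 0.05 was found for 5 of the 9 (55.6%, beside 16.4% of all genes). Lgr4, described as a further receptor of RANKL, was at 14.7 ± 1.79 CPM (SD, n = 4) in controls and 20.9 ± 2.74 CPM (SD, n = 7) in BMAd-DTA mice, without overlap (log2 fold change 0.51 ± 0.12, SE; edgeR adjusted p = 0.0720, DESeq2 adjusted p = 0.00419). Mmp14, a protease that sheds RANKL (0.54 ± 0.15; DESeq2 adjusted p = 0.0107), and Ptprz1, a further receptor of IL-34 that is also on the osteocyte list (0.62 ± 0.20; DESeq2 adjusted p = 0.0390), were the others. Adam10 (-0.24) and the TRAIL gene Tnfsf10 (-0.36), whose product also binds osteoprotegerin, were lower at an unadjusted edgeR p under 0.05.

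Of 17 inducers of RANKL and their receptors 15 were tested, since Il11 and Il17a did not pass the low-count filter or were not in the table. There were 8 higher and 7 lower with a median of 0.062, and 4 of the 15 had an unadjusted edgeR p under 0.05 (26.7%, beside 16.4% of all genes). The calls by DESeq2 were 3, all higher, and all 3 are receptors. Pth1r, the parathyroid hormone receptor, had a log2 fold change of 0.87 ± 0.21 (SE; DESeq2 adjusted p = 0.00145), the vitamin D receptor gene Vdr 0.80 ± 0.19 (DESeq2 adjusted p = 0.00202) and Lifr, the receptor of leukaemia inhibitory factor, 0.70 ± 0.17 (DESeq2 adjusted p = 0.00271). Their edgeR adjusted p-values were 0.0774 to 0.0798. Il1r1 was lower at an unadjusted edgeR p under 0.05 (-0.25 ± 0.10), and Il1b had the smallest value, -0.33 ± 0.31. The cytokine genes Tnf (0.07 ± 0.15), Il6 (-0.16 ± 0.55) and Osm (0.21 ± 0.13) did not pass at an unadjusted p under 0.05, and were named after their values were seen.

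**Figure D5:**
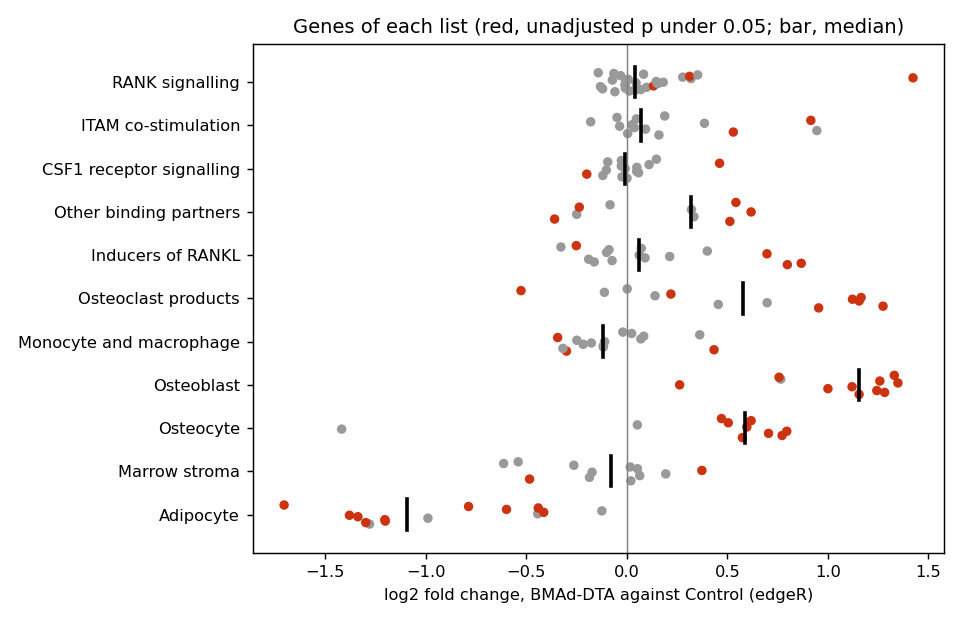
Log2 fold change of BMAd-DTA against control mice (horizontal axis, edgeR) for each tested gene of 5 pathway lists and 6 cell marker lists; points are genes, red where the unadjusted p was under 0.05, and black bars are medians. RANK and CSF1 receptor signalling centre near 0 (0.040 and -0.0086), osteoblast genes lie at a median of 1.16 and adipocyte genes at -1.10.

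Markers of the cells that make or receive these signals were read beside the 6 genes. Osteoblast genes, the lineage that makes CSF1, RANKL and osteoprotegerin, had 11 of 11 tested members higher with a median of 1.16. Of these, 7 passed DESeq2, among them Alpl, Bglap2, Col1a1, Col1a2, Ifitm5 and Sp7, and Alpl also passed edgeR (adjusted p = 0.0326). Log2 fold changes in this list ran from 0.26 (Runx2) to 1.35 (Col1a1), and Bglap2 may share reads with its near copy Bglap. Their summed level was 3186 CPM in control mouse 1, 11410 to 13440 CPM in the other controls and 16270 to 36500 CPM in BMAd-DTA mice. Within that sum the largest members in controls were Col1a1 and Col1a2, at means of 4720 and 3869 CPM, while Alpl was at 142 CPM. Osteocyte genes had 9 of 10 higher with a median of 0.59, 6 of them past DESeq2 (Dmp1, Irx5, Mepe, Phex, Ptprz1 and Sost), and ran from -1.42 (Fgf23) to 0.80 (Sost). Their sums did not overlap either (696 to 820.8 against 876.9 to 1263 CPM). Both sums separated the groups as Csf1 did, and so did the chondrocyte sum given below. The part of these lists in the Csf1 difference was not tested. Unadjusted edgeR p under 0.05 was found for 10 of 11 osteoblast genes (90.9%) and 8 of 10 osteocyte genes (80%). Over all genes the share was 16.4% by that measure and 5.42% by DESeq2.

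Osteoclast products had 10 of 12 higher with a median of 0.58. Of the 12, 7 had an unadjusted edgeR p under 0.05 (58.3%, beside 16.4% of all genes), 6 higher and 1 lower. The protease gene Ctsk had the largest value (1.27 ± 0.45, SE; edgeR adjusted p = 0.173) and the carbonic anhydrase gene Car2, which red cells also make, the smallest (-0.53 ± 0.19). Among the 11 given an adjusted p by DESeq2, Atp6v0d2, a proton pump subunit of fusing osteoclasts, was the 1 that passed (1.16 ± 0.33; adjusted p = 0.0348), and the sums overlapped (3099 to 4595 CPM in controls, 3346 to 6091 in BMAd-DTA mice). Monocyte and macrophage genes had 5 of 15 higher and 10 lower with a median of -0.12. Of these Cd68, a lysosomal gene of macrophages and osteoclasts, passed DESeq2 (0.43 ± 0.096; adjusted p = 0.00212) and Fcgr1 had the smallest value (-0.34 ± 0.12). Their sums were 4811 to 5055 CPM in controls and 4525 to 5432 CPM in BMAd-DTA mice. Of the 15, 3 had an unadjusted edgeR p under 0.05 (20%, beside 16.4% of all genes), 1 higher and 2 lower.

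Adipocyte genes had 14 of 14 lower fitted values with a median of -1.10. DESeq2 called 4 (Adrb3, Lipe, Pnpla2 and Retn), and edgeR 1, Retn (adjusted p = 0.0205), and the values ran from -1.70 (Adrb3) to -0.12 (Cebpa). Of the 14, 10 had an unadjusted edgeR p under 0.05 (71.4%, beside 16.4% of all genes). Marrow stroma genes, which mark another source of CSF1 and RANKL, had 6 higher and 6 lower with a median of -0.078, and Pdgfra alone passed DESeq2 (0.37 ± 0.12; adjusted p = 0.0498), while Grem1 had the smallest value (-0.61). Of these 12 stroma genes, 2 had an unadjusted edgeR p under 0.05 (16.7%, near the 16.4% of all genes). Other cell types were read in the same way. Chondrocyte sums did not overlap (749.7 to 1076 against 1090 to 1366 CPM, 10 of 10 tested genes higher), and Col2a1 (1.11), which passed DESeq2, and Hapln1 (0.067) were the extremes. Muscle sums ran from 24.5 to 1568 CPM in controls and 26.3 to 1203 in BMAd-DTA mice with 14 of 14 tested genes lower, from -1.76 (Myh1) to -0.22 (Myh2). With a muscle score in the model the Csf1 log2 fold change was 0.52 (edgeR adjusted p = 0.130). Of 9 B lymphocyte and 9 T lymphocyte genes all were higher (medians 0.54 and 0.34), as were 6 of 7 tendon genes (0.32) and 2 of 2 keratinocyte genes (0.51). Over all genes 8307 of 16496 were higher. Unadjusted edgeR p under 0.05 was found for 1 of 9 B lymphocyte (11.1%) and 6 of 9 T lymphocyte genes (66.7%), beside 16.4% of all genes. By the same measure the counts were 2 of 7 for tendon, 0 of 2 for keratinocyte, 0 of 14 for muscle and 2 of 10 for chondrocyte genes. The extremes were Cd79a (0.66) and Ebf1 (0.19) for B lymphocytes, Cd8b1 (0.89) and Zap70 (0.058) for T lymphocytes, Tnmd (0.90) and Kera (-0.38) for tendon, and Krt10 (0.73) and Trp63 (0.30) for keratinocytes. Neutrophil genes had a median of -0.071, from -0.25 (Cxcr2) to 0.10 (Mpo), and endothelial genes one of -0.089, from -0.23 (Tek) to 0.00089 (Erg). Erythroid genes had a median of -0.15, with Hba-a2, which has a near-identical copy, highest at 0.04, and DESeq2 called Epor lower (-0.48).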

How the data were processed

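Gene counts were deposited by the authors as whole read pairs without normalization, per library and merged. Per the study's methods, strand-specific paired-end mRNA reads were checked with FastQC 0.11.9 and aligned to mm10 with STAR at default parameters, and the authors tested genotype with DESeq2. The annotation release is not given in the sources used here. The merged table (22600 of 55401 genes) equals the read-strand column, and genes outside it held 1.32% to 1.71% of counts. Multimapping pairs are not counted. Lines that name no gene were not used. They were, per library, unmapped (9.10% to 15.1% of pairs), multimapping (6.68% to 9.07%), unassigned (6.58% to 8.44%) and ambiguous (1.49% to 1.70%) pairs. Identifiers were matched to GENCODE M21 (99.9% without version) for positions and exon lengths.

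The main test was edgeR 4.0.16 under R 4.3.3 (TMM, filterByExpr with the groups, glmQLFit, glmQLFTest, two-sided, Benjamini-Hochberg over 16496 genes, threshold 0.05), with genotype as the only term. The standard error is the log2 fold change over the square root of F. CPM used TMM-scaled library sizes, and log2 CPM a prior count of 2. The common biological coefficient of variation was 0.202. Single values were tested by exact permutation over 330 splits of the mice, whose smallest two-sided p is 0.00303. Correlations were tested by 100000 resamples over 11 or 9 mice, and exactly within the subsets of 7 or 6 mice. Ranks came from scipy 1.17.1. The labels give each sample its own identifier, and where these are not separate animals the p-values measure only the spread between samples. The fit was tested on simulated counts. DESeq2 1.42.0, limma-voom (limma 3.58.1), other scalings, no filter, per-library and both-strand counts, a muscle covariate and each library left out were alternatives. The unmapped classes were chosen after seeing the data.

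The 6 genes and all lists were chosen with earlier results of these data known. The text names the 6 genes, the extremes of each list it discusses and members past an adjusted threshold by edgeR or DESeq2, for pathway lists also those with an unadjusted edgeR p under 0.05, and the 3 nearest genes of each member among those with a mean of at least 50 counts. A few genes that this rule names are not reported here. Promoter sequences are from RefSeq (GRCm38.p6), which the tables used here hold for 3 of the 6 genes, and motifs were chosen after the sequences were seen.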

Additional observations from a re-analysis of the deposited data

Results flagged for a closer look

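In 54 groups of values, covering the 6 genes, the ratio and the summed level of each list, the highest and the lowest library were set against the others of their group, and 2 stood apart by Dixon's 95% limit. Chance flags about 1 in 20 such groups. The summed level of the 9 other binding partners was 920.7 CPM in BMAd-DTA mouse 1, and the next highest BMAd-DTA mouse had 798.2 CPM. The summed level of the 11 neutrophil genes was 18640 CPM in BMAd-DTA mouse 5, below the 23630 CPM of the next lowest. None of the 6 genes and neither group's ratio had such a library.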

How the results depend on the processing

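The log2 fold changes of the 6 genes kept their direction under all 9 other settings and in all 11 fits that left out a library. The count of genes past an adjusted p of 0.05 was 13 by edgeR and 845 by DESeq2, 20 by limma-voom, 20 with RLE size factors, 3 with the muscle covariate, and 0 to 292 with a library left out (0 without control 1 or 2 or BMAd-DTA 1 or 6, where 1784 to 2626 genes had an unadjusted edgeR p under 0.05, 292 without control 3, 89 without control 4, 8 without BMAd-DTA 3 and 3 without BMAd-DTA 4). The count among the 6 genes was 0 by edgeR, with 1 of 6 at an unadjusted p under 0.05, 1 by DESeq2 and 0 to 1 with a library left out. The gene is Csf1, which crossed the threshold by DESeq2 (log2 fold change 0.51, adjusted p = 0.00212) and without control 3 (0.61, edgeR adjusted p = 0.0390). With a library left out its log2 fold change was 0.45 to 0.61 (edgeR adjusted p = 0.0390 to 0.234), and elsewhere 0.50 to 0.52 (adjusted p = 0.00212 to 0.130). With a library left out, the others spanned 0.22 to 0.57 (Tnfsf11), 0.27 to 0.53 (Tnfrsf11a), 0.031 to 0.31 (Tnfrsf11b), 0.082 to 0.16 (Csf1r) and -0.55 to -0.27 (Il34). The RANKL to osteoprotegerin log2 ratio was -0.012 to 0.31 with a library left out, reversed without control 4 (-0.012), and -0.050 within the libraries with over 13% unmapped pairs. The correlation of Tnfsf11 with Tnfrsf11b was 0.673 without the 2 farthest libraries and -0.30 in BMAd-DTA mice alone. The cause of these changes was not tested.

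No paired analysis was possible because the labels give no replicate numbers shared between the groups. Tnfsf11 had the fewest counts of the 6 genes (52 to 126 per library), and its spread between mice was larger than counting error gives. The intervals show the changes that 4 controls against 7 BMAd-DTA mice could not separate from 0 for the 5 genes other than Csf1, and the p-values measure the spread among these mice.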
